A study of Mus musculus with 6 samples.

Results

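The TRIM family of ubiquitin ligases was examined in LT-HSCs, the long-term stem cells of the marrow, which sustain all blood lineages. Members were the protein-coding genes of the deposited expression table whose symbol is Trim followed by a digit, which gave 68 of 55487 genes. Of these, 43 were expressed, with at least 10 counts in 3 or more libraries, and the same 43 were tested. RNA had been sequenced from 3 libraries of wild-type mice given saline and 3 of wild-type mice that received carnosine, a dipeptide built from histidine and beta-alanine. None of the mice had been irradiated. The cells had been sorted as negative for lineage markers, Flk2 and CD34 and positive for Sca-1 and c-Kit. How much carnosine was given and for how long is not given in the sources used here, nor is anything on how many mice were used, how old they were or of which sex. Whether the libraries of a group came from separate mice is likewise not given, so the p-values measure the spread between these libraries, which may be technical.

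TRIM proteins share a tripartite front end made of a RING finger, B-box zinc fingers and a coiled coil. The RING finger binds a ubiquitin-charged carrier enzyme and passes ubiquitin to a substrate chosen by the rest of the protein, and the coiled coil pairs TRIM molecules. Many members are switched on by interferon and restrict viruses or tune the sensors of foreign RNA and DNA, while others act on chromatin, at microtubules or in maturing red cells. Hematopoietic stem cells are known to hold part of the interferon program at rest, and TRIM28 is known in stem cells as a silencer of transposable elements.

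Library totals ran from 10304539 to 13251332 counts, and TRIM genes took 0.257% to 0.272% of counts in saline and 0.259% to 0.261% in carnosine. All 8 stem cell markers checked, among them Kit, Ly6a, Procr, Slamf1 and Mecom, were detected, with a summed level of 1101 to 1133 CPM (read counts scaled to the size of the library) in saline and 1095 to 1241 CPM in carnosine. Of these markers only Mecom was called, higher in carnosine (log2 fold change 0.19, edgeR adjusted p = 0.0241). Hlf was at 361 CPM in carnosine replicate 1 and at 205 to 222 CPM in the other libraries. Cd34 and Flt3 RNA were read at 764 CPM or more in every library, although the sort took cells lacking both surface proteins.

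Interferon acts on its target genes mainly through the interferon-stimulated response element (ISRE), a promoter sequence read by the STAT2 and IRF factors. Its core was searched on both strands as GAAA, any 2 bases and GAAA again, which reads TTTC, any 2 bases and TTTC on the other strand. The windows ran from 250 bases before to 50 bases after the RefSeq start sites (GRCm38.p6), and 53 of the 68 members had at least 1. The core was present in 8 of 13 interferon-linked members (61.5%), in 9 of all 53 members (17.0%) and in 3.99% of 27025 gene symbols, or 3.44% of 32851 promoters. The 30 bases around a match are shown for those 8 genes because they carry the comparison of near-identical copies that follows. Capitals mark the core, or both cores where matches overlap, and each sequence is read 5′ to 3′ on the strand of its gene.
Trim12a (chr7:104315466-104315495, minus strand): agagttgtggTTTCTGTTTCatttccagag
Trim5 (chr7:104288136-104288165, minus strand): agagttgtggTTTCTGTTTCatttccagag
Trim12c (chr7:104353359-104353388, minus strand): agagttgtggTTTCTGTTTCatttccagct
Trim30a (chr7:104465210-104465239, minus strand): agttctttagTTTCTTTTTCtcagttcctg
Trim30d (chr7:104507871-104507900, minus strand): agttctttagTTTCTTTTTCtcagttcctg
Trim34a (chr7:104244457-104244486, plus strand): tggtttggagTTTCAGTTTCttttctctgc
Trim21 (chr7:102565447-102565476, minus strand): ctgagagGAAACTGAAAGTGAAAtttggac
Trim26 (chr17:36836979-36837008, plus strand): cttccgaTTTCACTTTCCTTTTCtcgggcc
Trim30a holds a second match at another of its start sites, which is not shown. The windows of Trim12a and Trim5 are letter for letter the same, as are those of Trim30a and Trim30d. A match is a description of these letters and does not show that a factor binds there.

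Levels of different genes were compared per transcript length, as deposited FPKM (fragments scaled to transcript length and library size). Trim28, the corepressor that joins KRAB zinc finger proteins to the histone methyltransferase SETDB1, had the highest level of the family, 75.6 ± 0.81 FPKM in saline and 82.6 ± 2.22 FPKM in carnosine (SD, n = 3 in each group). Trim44, which lacks the RING finger, followed at 39.9 ± 0.417 and 40.8 ± 1.22 FPKM (SD, n = 3). Next came Trim25, the ligase that modifies the RNA sensor RIG-I, at 27.4 ± 9.62 and 27.4 ± 1.49 FPKM, and Trim8, a regulator of cytokine signalling, at 26.5 ± 0.631 and 27.5 ± 0.654 FPKM (SD, n = 3). In each group the mean of Trim8 lay within the SD of Trim25, so the order of these genes is not settled. Trim30a had the highest level of the cluster of interferon-linked genes on chromosome 7, with a mean of 24.8 FPKM over the 6 libraries. At the low end of the expressed members stood Trim2 and Trim7, with means of 0.0868 and 0.172 FPKM.

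**Figure D1:**
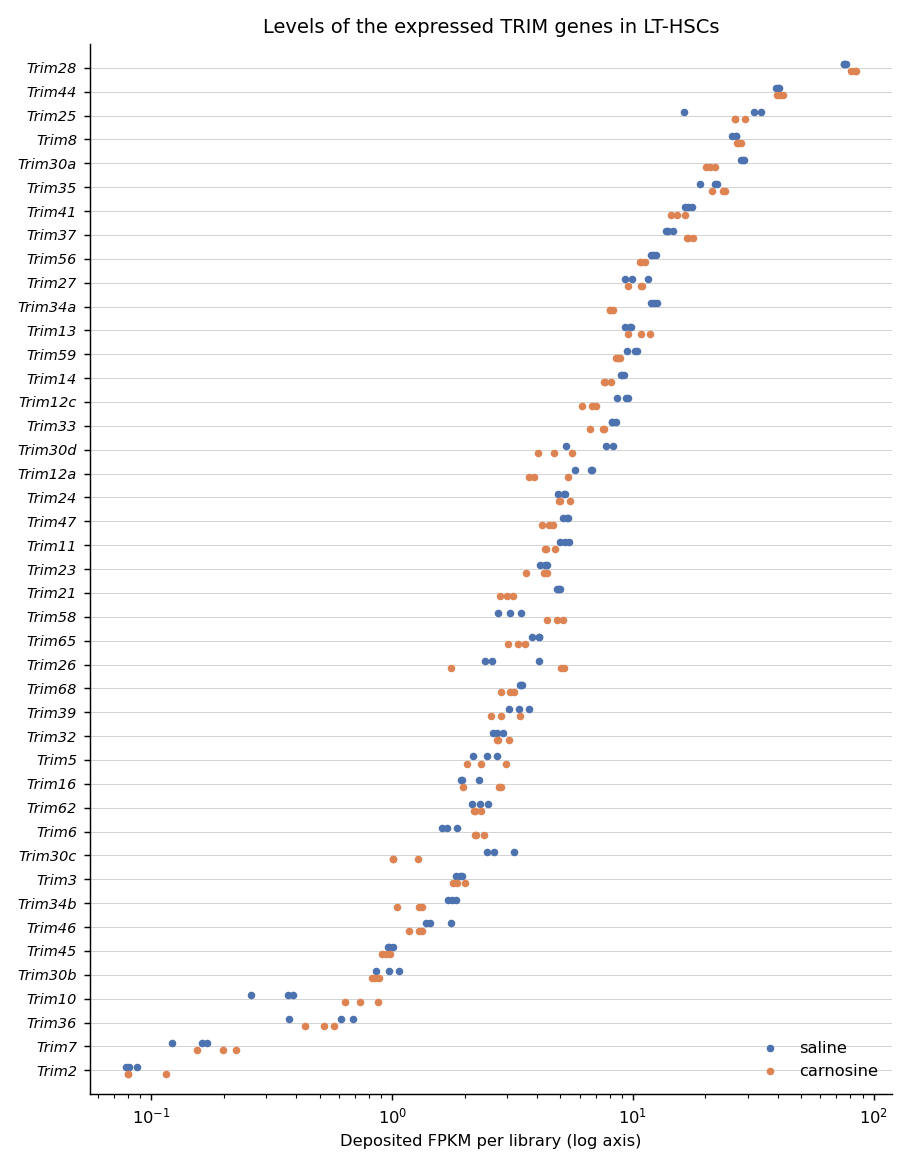
Deposited FPKM of the 43 expressed TRIM genes in each library (points; log axis; blue, saline; orange, carnosine), ordered by the mean over 6 libraries. Trim28 leads at a mean of 79.1 FPKM, and the saline points of Trim30a, Trim34a, Trim21 and Trim30c lie to the right of their carnosine points.

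The other 25 members fell short of the expression rule. No read was counted in any library for 14 of them (Trim31, Trim38, Trim42, Trim43a, Trim43b, Trim43c, Trim50, Trim52, Trim54, Trim60, Trim61, Trim63, Trim75 and Trim80), which allows up to 3 counts, or 0.227 to 0.291 CPM, in a library. The remaining 11 (Trim9, Trim15, Trim17, Trim29, Trim40, Trim55, Trim66, Trim67, Trim69, Trim71 and Trim72) had between 1 and 52 counts summed over the 6 libraries. Just inside the rule stood Trim10, with 10 or more counts in 4 libraries. Just outside stood Trim66 and Trim9, with 10 or more counts in 2 libraries each. The muscle ligase Trim63 and its relatives Trim54 and Trim55 were thus at or near 0 in this blood cell.

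The comparison of carnosine with saline asks which TRIM genes differ in LT-HSCs of unirradiated mice. Of 43 tested, 10 fell (23.3%) and 5 rose (11.6%), and 28 did not pass the threshold (edgeR adjusted p below 0.05). Over all 15298 genes tested, 8.39% were lower and 9.51% were higher. The 14 interferon-linked members held 8 of the falls and none of the rises, whereas among the other 29 members 2 fell (6.90%) and 5 rose (17.2%). The median log2 fold change was -0.45 for the interferon-linked members and 0.01 for the others, beside 0.00 for all genes tested. Those 14 genes were listed knowing that interferon-stimulated genes as a class are lower in these carnosine libraries, so their direction is not independent evidence of that. Trim6, which acts in the interferon response and lies beside these genes on chromosome 7, was not on that list and was 1 of the 5 that rose, so the absence of rises depends on where the list was drawn.

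**Figure D2:**
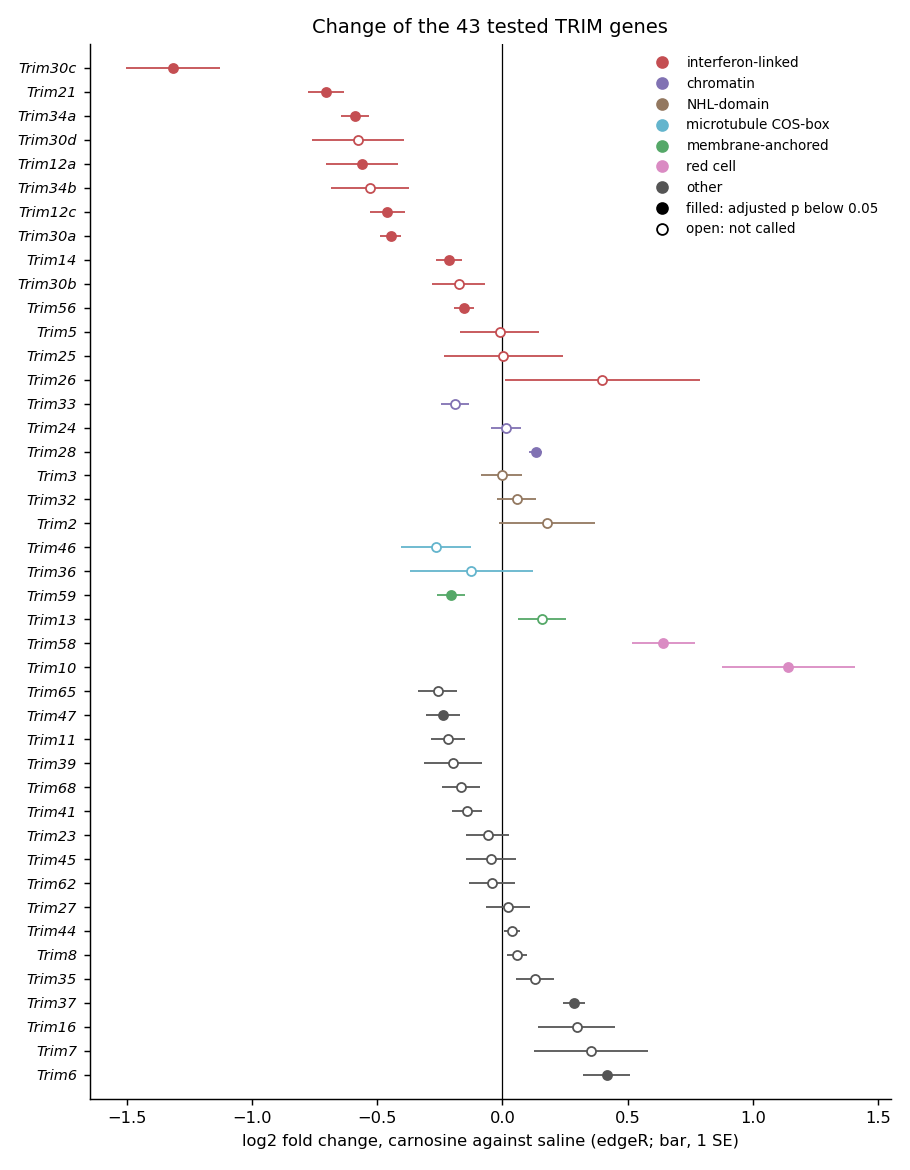
Log2 fold change of the 43 tested TRIM genes, carnosine against saline (edgeR; bars, 1 SE), grouped by role; filled points passed an adjusted p of 0.05. The 8 filled interferon-linked genes lie to the left of 0, from -1.32 for Trim30c to -0.15 for Trim56, and Trim10 and Trim58 lie farthest to the right.

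The count of falls rests on modest differences and moved with single libraries. It was 6 of all members without saline replicate 1 or carnosine replicate 1 and 5 without saline replicate 3 or carnosine replicate 2, and the count of rises was 3 without saline replicate 1, saline replicate 3 or carnosine replicate 3. For the interferon-linked members the 8 falls became 5 without saline replicate 1, saline replicate 3 or carnosine replicate 2. With each library left out in turn the share of all genes called lower was 5.05% to 5.57%, against 8.39% with all 6. Every called member kept its direction under the 17 alternatives run for it, and 8 were called under each of the 17 (Trim12c, Trim21, Trim28, Trim30a, Trim30c, Trim34a, Trim37 and Trim58).

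Trim21 is the cytosolic antibody receptor, a ligase that binds the constant part of antibodies that entered the cell on a virus. It lies on chromosome 7 (ENSMUSG00000030966, GRCm38, 102557921 to 102565486, minus strand). Its level was 31.8, 31.2 and 32.1 CPM in the saline libraries and 19.4, 18.2 and 20.6 CPM in the carnosine libraries. The groups lay far apart relative to their spread, and the log2 fold change was -0.70 (SE 0.07, edgeR adjusted p = 0.000742). The 2 overlapping ISRE cores shown above stand 13 bases after its start site.

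Trim30a is a mouse gene known to dampen NF-kB signalling downstream of Toll-like receptors (ENSMUSG00000030921, chromosome 7, 104409025 to 104465193, minus strand). It stood at 129, 126 and 130 CPM in saline and at 93.8, 98.5 and 90.8 CPM in carnosine. All carnosine libraries were lower than all saline libraries, with a log2 fold change of -0.45 (edgeR adjusted p = 0.000538, SE 0.04). Its neighbour and copy Trim30c (ENSMUSG00000078616, 104382065 to 104400837, minus strand) had 57, 47 and 56 counts in saline and 21, 18 and 29 in carnosine. This was the largest fall among the tested members, 4.76 ± 0.643 against 1.89 ± 0.267 CPM (SD, n = 3), or -1.32 on the log2 scale (edgeR adjusted p = 0.00361, SE 0.19).

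Trim30d, a further copy next to Trim30a, had 40.4, 27.5 and 43.1 CPM in saline and 24.6, 29.1 and 21.1 CPM in carnosine. Saline replicate 2 lay within the carnosine range, and Trim30d did not pass (log2 fold change -0.57, SE 0.18, edgeR adjusted p = 0.0703). Without saline replicate 2 it did pass, with a log2 fold change of -0.75 (adjusted p = 0.0198), and it also passed with DESeq2 (adjusted p = 0.0338). Trim30b averaged 12.6 ± 1.40 CPM in saline against 11.2 ± 0.351 CPM in carnosine (SD, n = 3; adjusted p = 0.30).

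Trim34a (ENSMUSG00000056144, chromosome 7, 104244457 to 104262234, plus strand) is an interferon-induced member. It was read at 46.3, 45.1 and 43.5 CPM in saline and 30.4, 29.6 and 29.7 CPM in carnosine. The carnosine libraries were nearly equal and all lower, with a log2 fold change of -0.59 (edgeR adjusted p = 0.000553, SE 0.06). Its copy Trim34b was lower in level, at 4.46 ± 0.173 CPM in saline and 3.09 ± 0.384 CPM in carnosine (SD, n = 3), with a log2 fold change of -0.53. Its groups did not overlap, but it missed the threshold (adjusted p = 0.0551). On the deposited FPKM it passed (limma-trend adjusted p = 0.027 with a pseudocount of 1 and 0.0336 with 0.1).

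Trim12a, Trim12c and Trim5 are the mouse relatives of the retrovirus restriction factor TRIM5. Trim12c (ENSMUSG00000057143, chromosome 7, 104338754 to 104353362, minus strand) was at 50.2, 45.4 and 49.4 CPM in saline and at 35.9, 37.0 and 32.7 CPM in carnosine. It fell by 0.46 on the log2 scale (SE 0.07, edgeR adjusted p = 0.00504), with no overlap between groups. Trim12a (ENSMUSG00000066258, 104299894 to 104315466, minus strand) ran at 48.5, 41.1 and 48.1 CPM in saline and 38.6, 26.7 and 28.0 CPM in carnosine. Its carnosine libraries were uneven, replicate 1 being nearest to saline, and the log2 fold change was -0.56 (SE 0.14, adjusted p = 0.0348). That call was lost without saline replicate 1, 2 or 3 (adjusted p = 0.104, 0.0532 and 0.101) and without carnosine replicate 2 or 3 (0.0964 and 0.107). Trim5, whose ISRE window equals that of Trim12a, averaged 12.3 ± 1.39 CPM in saline against 12.3 ± 2.39 CPM in carnosine (SD, n = 3; log2 fold change -0.01, SE 0.16). Whether the change of Trim5 differs from that of Trim12a was not tested.

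These copies are alike enough for reads to be misassigned, and how the authors treated reads with several matches is not given in the sources used here. Of the stretches of 75 bases in the longest coding transcript, 31.2% for Trim34a, 44.8% for Trim34b, 22.0% for Trim5, 16.4% for Trim12c, 13.5% for Trim12a, 6.45% for Trim30d and 5.44% for Trim30a occur in a transcript of another gene. For Trim30c and Trim21 the share was 0%. With the copies summed, a choice made after seeing the data, Trim34a and Trim34b went from 49.4 ± 1.45 to 33.0 ± 0.0152 CPM (SD, n = 3; edgeR adjusted p = 0.000447). Trim30a and Trim30d together went from 165 ± 10.0 to 119 ± 7.88 CPM (adjusted p = 0.00254), and Trim5, Trim12a and Trim12c together from 107 ± 8.09 to 78.6 ± 7.64 CPM (adjusted p = 0.0117). Each sum was therefore lower in carnosine however its reads had been divided among the copies in it. Reads discarded or given to genes outside a sum are not covered, and a sum does not show the change of a single copy.

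**Figure D3:**
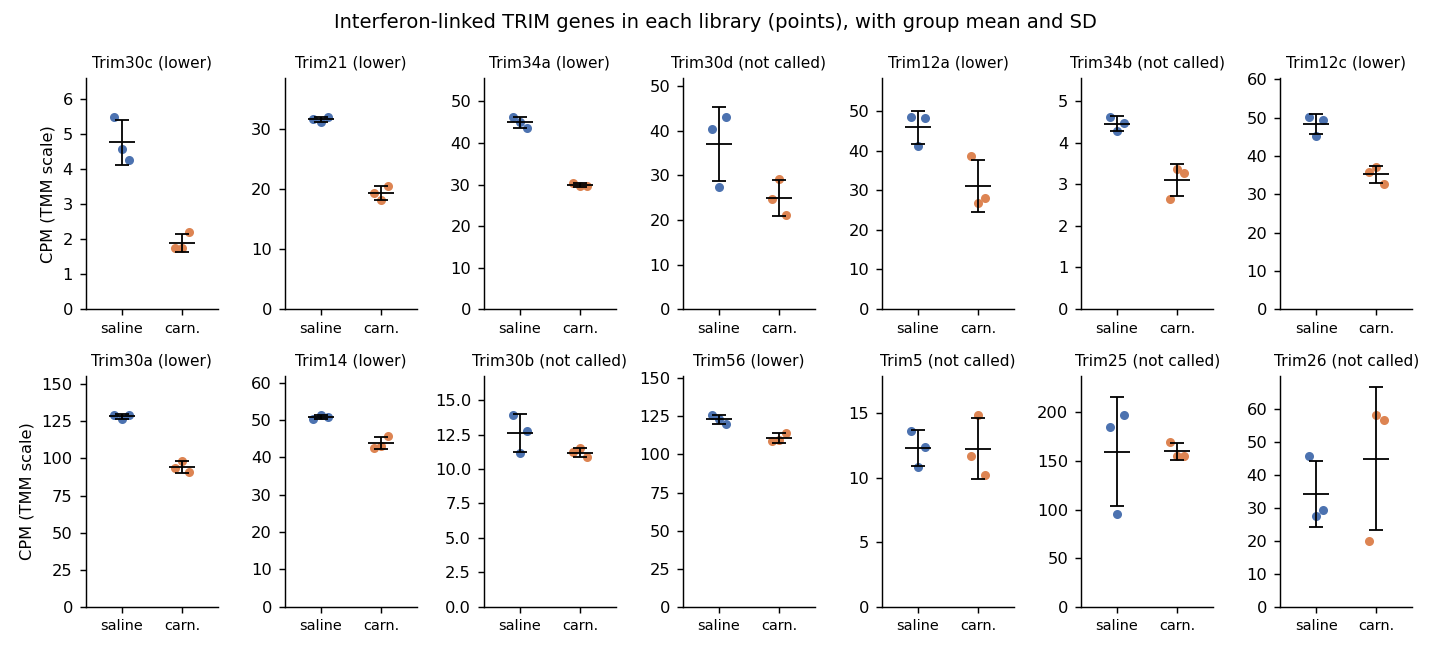
CPM of the 14 interferon-linked TRIM genes in each library (points; blue, saline; orange, carnosine; horizontal mark and bar, mean and SD of 3 libraries; axes start at 0), ordered by log2 fold change. Trim30c, Trim21, Trim34a and Trim30a separate by group, while Trim25 has 1 low saline library and Trim26 is scattered in both groups.

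Trim14, which lacks a RING finger and supports signalling by the mitochondrial adaptor MAVS, was at 50.3, 51.5 and 50.9 CPM in saline and 42.6, 43.2 and 45.7 CPM in carnosine. It fell by 0.21 on the log2 scale (SE 0.05, edgeR adjusted p = 0.029). Without saline replicate 1, 2 or 3 its adjusted p was 0.0667, 0.0901 and 0.0816, and without carnosine replicate 1 or 2 it was 0.0827. Trim14 was also not called with DESeq2 (adjusted p = 0.135) or with no filter on low counts (0.103). A block for replicate number in edgeR ended the call too (adjusted p = 0.071). Trim14 overlaps Nans on the opposite strand, and whether strand was used in counting is not given in the sources used here. Trim56, a ligase linked to the DNA sensing adaptor STING, was at 126, 123 and 120 CPM in saline and 109, 110 and 114 CPM in carnosine. The fall of Trim56 was small, with a log2 fold change of -0.15 (edgeR adjusted p = 0.033, SE 0.04). Its adjusted p was 0.101, 0.0837 and 0.0529 without saline replicate 1, 2 or 3 and 0.104 and 0.0975 without carnosine replicate 1 or 2. Trim56 was also not called with DESeq2 (adjusted p = 0.137), with no filter (0.108) or on FPKM with limma-trend (0.0545 and 0.055). With the block for replicate number its edgeR adjusted p was 0.0892.

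Trim25 and Trim26 did not pass and were marked by spread within groups. Trim25 (ENSMUSG00000000275, chromosome 11, 88999376 to 89020293, plus strand) was read at 185, 95.0 and 198 CPM in saline and at 170, 155 and 155 CPM in carnosine. Saline replicate 2 alone lay below the carnosine libraries and the other two saline libraries were above them (log2 fold change 0.00, SE 0.24, edgeR adjusted p = 0.995). Without saline replicate 2 the log2 fold change was -0.26 (adjusted p = 0.0355). The highest saline library was 2.08-fold the lowest, a ratio reached in saline by 1.24% of the 10201 tested genes with a mean of at least 10 CPM. Trim26 (ENSMUSG00000024457, chromosome 17, 36837134 to 36859398, plus strand) ran at 45.6, 27.4 and 29.3 CPM in saline and 19.9, 58.3 and 56.6 CPM in carnosine. Both the lowest and the highest values of Trim26 were carnosine libraries, 2.93-fold apart, a ratio reached in carnosine by 0.647% of those genes.

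Of the 14 interferon-linked members 9 had groups that did not overlap with carnosine lower, and none had carnosine higher. Over all genes tested, 19% did not overlap with carnosine lower and 19.7% with carnosine higher. Among 10 transducers of the interferon signal, the receptor chains, kinases and factors upstream of these genes, 6 fell and none rose (median log2 fold change -0.31), beside 8.39% called lower and 9.51% called higher over all genes tested. They included Irf7 (-0.87), Stat2 (-0.82), Irf3 (-0.35), Ifnar2 (-0.27) and Tyk2 (-0.22). Irf9 (-0.47, adjusted p = 0.122), Irf1 (-0.07), Ifnar1 (0.02) and Jak1 (0.08) did not pass.

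Some markers of other cells also differed between the groups, in both directions. In bulk RNA, fewer cells of a type and less RNA per cell cannot be told apart. Summed over 5 monocyte and macrophage markers, the level was 100 to 116 CPM in saline and 66.7 to 73.4 CPM in carnosine, with Csf1r and Itgam called lower. The 6 neutrophil markers summed to 142 to 164 and 107 to 123 CPM, with Elane lower and Prtn3 not called (log2 fold change -0.36). S100a8 (0.14), S100a9 (0.38) and Ltf (0.85) had log2 fold changes above 0 without a call, and Ngp was not tested. The 4 progenitor markers summed to 2256 to 2267 and 1994 to 2034 CPM, with Mpo lower. The 4 plasmacytoid dendritic cell markers summed to 260 to 291 and 237 to 250 CPM, with Ccr9 lower. The 8 B and plasma cell markers summed to 171 to 243 and 364 to 606 CPM, with Jchain higher and 3 markers lower, Sdc1 and Ebf1 among them. The 5 T and NK cell markers were at 10.4 to 12.5 and 7.70 to 10.8 CPM, with Cd4 lower. No marker was at 0 in all 6 libraries, and the part of these cells in the TRIM results was not tested.

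The interferon-linked copies sit together. Between the start of Trim6 and the end of Trim30d lie 10 TRIM genes within 289.1 kb of chromosome 7 (104218793 to 104507849), all of them tested. Of these 5 fell (Trim34a, Trim12a, Trim12c, Trim30c and Trim30a), 4 did not pass and 1 rose, beside 8.39% lower and 9.51% higher over all genes tested. The gene that rose was Trim6, at the edge of the cluster, which makes free ubiquitin chains in the interferon response (ENSMUSG00000072244, 104218793 to 104235152, plus strand). Its level was 11.9, 13.2 and 11.4 CPM in saline and 17.2, 15.8 and 15.7 CPM in carnosine, with no overlap (log2 fold change 0.42, SE 0.09, edgeR adjusted p = 0.0215). The call of Trim6 was lost without saline replicate 1 or 3 (adjusted p = 0.062 and 0.0717) and without carnosine replicate 1 or 3 (0.0735 and 0.0517), and with DESeq2 (0.0743). That call was also lost with a block for replicate number (edgeR adjusted p = 0.0572). The other 8 genes annotated in the window are pseudogenes, antisense transcripts and small nuclear RNAs, of which only the pseudogene Gm16464 could be tested (log2 fold change -0.25, adjusted p = 0.429).

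**Figure D4:**
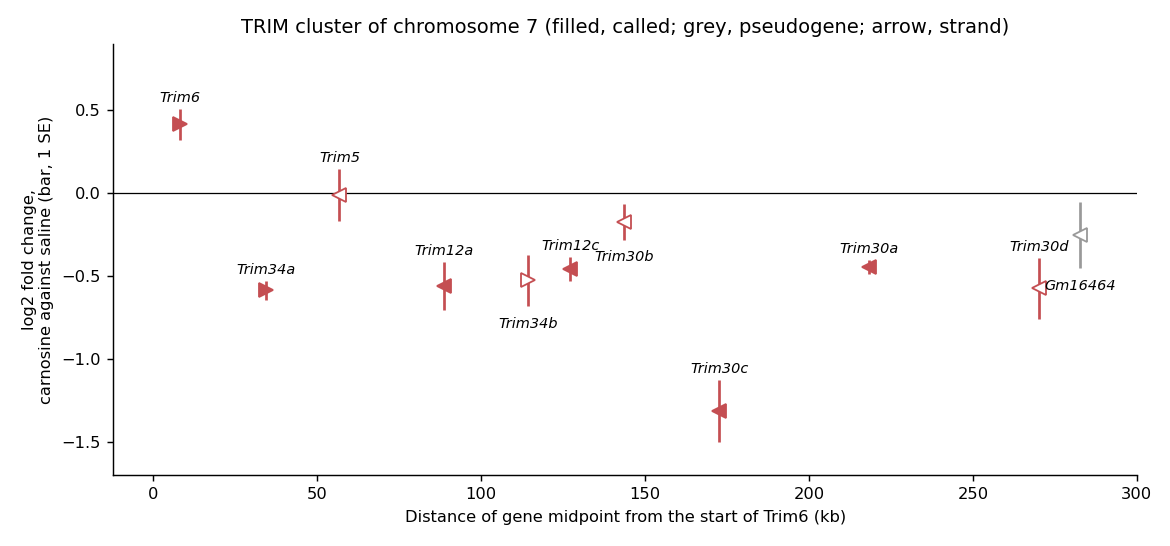
Log2 fold change (bars, 1 SE) of each tested gene in the TRIM cluster of chromosome 7 against the distance of its midpoint from the start of Trim6, in kb. Trim6 is the 1 filled point above 0, and the 5 filled points below 0 lie on both strands.

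Of 9 members called lower that had a promoter in the RefSeq table, 5 held the ISRE core (Trim12a, Trim12c, Trim21, Trim30a and Trim34a), beside 3.99% of gene symbols. All of these 5 members are interferon-linked, and all but Trim21 are in the chromosome 7 cluster. Of the 13 interferon-linked members with a promoter, called or not, 8 held the core (61.5%). Trim12a and Trim12c are copies with the same core, so their matches are not separate occurrences. Of 5 members called higher none did, and 4 of 20 members tested and not called did (Trim2, Trim5, Trim26 and Trim30d). Trim30c, Trim47, Trim56 and Trim59 were called lower with no match in the window. The STAT site TTCNNNGAA, like the GATA site searched on both strands, was found in 1 of the 9 lower members, Trim30c, and in 9.55% of gene symbols (8.30% of promoters). The red cell GATA site AGATAA was found in 1 of the 5 higher members, Trim10, and in 12.7% of gene symbols (11.2% of promoters).

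Of the red cell members, Trim58 rose under every alternative run, and Trim10 passed on few counts. Trim58, a ligase that removes dynein from maturing red cells (ENSMUSG00000037124, chromosome 11, 58640465 to 58652404, plus strand), was at 7.5, 6.02 and 6.75 CPM in saline and 9.70, 10.7 and 11.3 CPM in carnosine. Every carnosine library was higher than every saline library, with a log2 fold change of 0.64 (edgeR adjusted p = 0.0126, SE 0.12). Trim10, known for a role in red cell differentiation (ENSMUSG00000073400, chromosome 17, 36869574 to 36877833, plus strand), had 9, 6 and 11 counts in saline and 20, 15 and 26 in carnosine. It met the expression rule through the 3 carnosine libraries, the group where it is high, with only 1 saline library at 10 or more counts. Its call is therefore given as a description and does not count as support for the group. Its log2 fold change was 1.14 (SE 0.27, adjusted p = 0.0246). The call of Trim10 was lost without saline replicate 1, 2 or 3 (adjusted p = 0.0596, 0.0879 and 0.0667) and without carnosine replicate 1 or 3 (0.0715 and 0.0916), and DESeq2 did not call it (adjusted p = 0.182). With a block for replicate number the edgeR adjusted p of Trim10 was 0.054. The 6 red cell markers moved the same way, from a sum of 37.9 to 45.2 CPM in saline to 119 to 126 CPM in carnosine. Of these markers the globins Hbb-bs (2.07), Hba-a1 (1.72) and Hbb-bt (1.63) rose, on the log2 scale, and the precursor genes Klf1 (0.08) and Epor (0.50) did not pass. The part of red cell RNA in the rise of Trim58 and Trim10 was not tested.

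**Figure D5:**
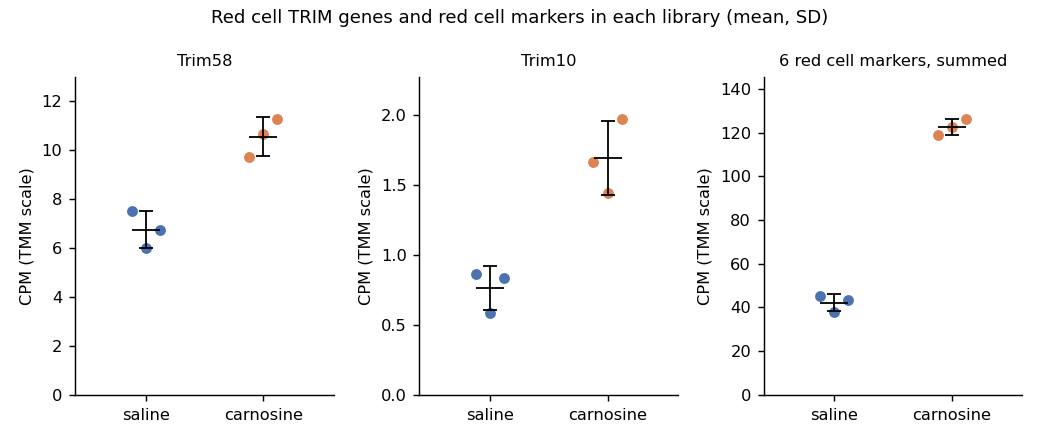
CPM of Trim58, Trim10 and the sum of 6 red cell markers in each library (points; blue, saline; orange, carnosine; horizontal mark and bar, mean and SD of 3 libraries). In each panel the 3 carnosine libraries lie above the 3 saline libraries.

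Among the chromatin members, Trim28 rose slightly. It was read at 569, 578 and 567 CPM in saline and at 640, 608 and 632 CPM in carnosine (ENSMUSG00000005566, chromosome 7, 12999114 to 13031035, plus strand). The groups did not overlap, and the log2 fold change was 0.13 (SE 0.03, edgeR adjusted p = 0.0129). Its gene model overlaps Zbtb45 on the opposite strand. Trim33, which modifies SMAD4 and acts in the TGF-beta pathway, was at 131, 127 and 127 CPM in saline and 116, 118 and 103 CPM in carnosine. Trim33 missed the threshold (log2 fold change -0.19, adjusted p = 0.0556) although its groups did not overlap, and it passed with upper quartile scaling (adjusted p = 0.0474) and with limma-voom (0.0499). Trim24, a partner of nuclear receptors, was 51.7 ± 1.604 and 52.2 ± 3.04 CPM (SD, n = 3; adjusted p = 0.891). Of 8 partners of Trim28 in silencing, 3 fell (Chd3, -0.31; Setdb1, -0.20; Morc3, -0.18), 1 rose (Cbx5, 0.32) and 4 did not pass, beside 8.39% lower and 9.51% higher over all genes tested.

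Trim37, a ligase of peroxisomes and centrosomes, had the smallest p among the members that rose (ENSMUSG00000018548, chromosome 11, 87127077 to 87220683, plus strand). It was at 106, 112 and 105 CPM in saline and 128, 129 and 136 CPM in carnosine. All carnosine libraries were above all saline libraries (log2 fold change 0.29, SE 0.04, edgeR adjusted p = 0.00462).

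The remaining falls were small. Trim59, which is anchored in membranes (ENSMUSG00000034317, chromosome 3, 69035288 to 69044755, minus strand), went from 49.0, 52.8 and 53.6 CPM in saline to 44.0, 45.2 and 45.8 CPM in carnosine (log2 fold change -0.20, SE 0.06, edgeR adjusted p = 0.0449). Its call was lost without saline replicate 2 or 3 (adjusted p = 0.128 and 0.134) and without carnosine replicate 1, 2 or 3 (0.113, 0.0985 and 0.0879), with DESeq2 (0.175) and with no filter on low counts (0.142). A block for replicate number also ended the call of Trim59 (edgeR adjusted p = 0.0761). Trim47 (ENSMUSG00000020773, chromosome 11, 116105752 to 116127210, minus strand) was at 29.3, 27.9 and 29.0 CPM in saline and 23.1, 25.5 and 24.6 CPM in carnosine. It stood at the threshold itself, with a log2 fold change of -0.24 (edgeR adjusted p = 0.04999, SE 0.07). Leaving out any 1 of the 6 libraries ended that call (adjusted p = 0.0733 to 0.142), as did DESeq2 (0.23), no filter (0.15), a filter of 10 counts in 3 libraries (0.0505) and limma-trend on FPKM (0.0515 and 0.0534). So did a block for replicate number (edgeR adjusted p = 0.115). Trim47 overlaps Trim65 on the same strand, and Trim65, a ligase for the RNA sensor MDA5, was 30.03 ± 1.21 and 25.1 ± 1.97 CPM (SD, n = 3; adjusted p = 0.0619).

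The other tested members did not pass. They were the NHL-domain genes Trim2, Trim3 and Trim32, the microtubule genes Trim36 and Trim46, the membrane-anchored Trim13, and Trim7, Trim8, Trim11, Trim16, Trim23, Trim27, Trim35, Trim39, Trim41, Trim44, Trim45, Trim62 and Trim68. Their log2 fold changes ran from -0.27 for Trim46 to 0.36 for Trim7. Trim44 was at 244, 246 and 242 CPM in saline and 249, 244 and 259 CPM in carnosine, with overlapping groups (log2 fold change 0.04, SE 0.03, adjusted p = 0.426). Trim11 averaged 38.0 ± 1.74 CPM in saline against 32.6 ± 1.75 CPM in carnosine (SD, n = 3), without overlap and short of the threshold (adjusted p = 0.0645). Trim16 was called higher in 1 alternative, without carnosine replicate 1 (log2 fold change 0.45, adjusted p = 0.0442).

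Some TRIM proteins carry other symbols. Mid1, which binds microtubules, had 116, 117 and 117 counts in saline and 77, 76 and 82 in carnosine, and fell by 0.65 on the log2 scale (SE 0.14, edgeR adjusted p = 0.0183). Pml, the scaffold of nuclear bodies, was spread from 80.2 to 150 CPM in saline and from 107 to 131 CPM in carnosine (log2 fold change 0.01, adjusted p = 0.989). Mid2 did not pass (log2 fold change 0.05). Mefv, the sensor pyrin, was too low to test, with 7, 10 and 12 counts in saline and 0, 3 and 0 in carnosine. Of 12 enzymes that charge or carry ubiquitin for RING ligases 2 rose, the activating enzyme Uba1 (0.15) and the carrier Ube2e3 (0.21). None of the 12 fell, and these counts are close to the shares of 9.51% higher and 8.39% lower over all genes tested. The carriers Ube2n (0.07), Ube2d3 (-0.04) and Ube2w (-0.15) did not pass.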

How the data were processed

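For each gene the authors deposited raw counts and FPKM values by library, per the file headers, and the counts, whole numbers, were used as deposited. Poly-A RNA was made into stranded paired-end libraries, per the labels' protocols. GRCm38 was the build, and edgeR, StringTie, HISAT2 and CASAVA 1.8 were used, per the submitters' processing notes. How reads were assigned to genes is not given in the sources used here. Gene coordinates are those of the table, which matched GENCODE M21 for all 68 members.

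Counts were scaled by TMM, filtered with filterByExpr (15298 genes kept) and tested with edgeR 4.0.16 in R 4.3.3 (quasi-likelihood F test, two-sided, Benjamini-Hochberg over all genes kept, threshold 0.05). Adjusted p-values are from this test unless another is named. SE is the log2 fold change over the square root of F. The 3 libraries of each group entered without a block. The script was tested on simulated data. Alternatives, 17 in all, were DESeq2 1.42.0, limma-voom and limma-trend on FPKM (limma 3.58.1; pseudocounts 1 and 0.1), other scalings and filters, a replicate block, and leaving out each library. Totals give 0.227 to 0.291 CPM for 3 counts, which covers counting error only.

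The members and lists were chosen with earlier results of these data known. Every member past the threshold is given by library, together with fixed interferon-linked and chromatin members and the 3 of highest FPKM. The ISRE windows were chosen after their values were seen. Some genes of the marker and signalling lists are not reported here by name.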

Additional observations from a re-analysis of the deposited data

How the results depend on the processing

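The number of TRIM genes lower in carnosine was 10, and it was 6 of 54 tested with no filter on low counts and 6 of 43 with the replicate block. The share of all genes called lower fell too, from 8.39% to 3.04% with no filter and 5.29% with the block. The number higher was 5, and it was 3 with DESeq2 and 3 with the replicate block. With each library left out in turn, 5 to 7 members were lower, 3 to 5 higher, and 5 to 7 interferon-linked members lower. Over all genes 2738 were called, 1756 with the replicate block and 1753 to 1892 with a library left out. The fits with a library left out hold fewer samples, and the cause of the lower counts was not tested. Same-numbered libraries did not deviate together (r = -0.05, -0.069 and 0.019 over 15298 genes, across genes, which are not replicates). The labels do not say what the numbers share, so they were not used to pair the libraries. Saline replicate 1 correlated best with carnosine replicate 2 (r = 0.07). Trim25 changed sign without saline replicate 2, at -0.26 on the log2 scale, the lowest of its values with a library left out, and the highest was 0.191 without saline replicate 3. With the reads of Trim5, Trim12a and Trim12c summed, chosen after seeing the data, the log2 fold change was -0.44. All other alternatives kept the 4 counts within 1.5 times, and all 15 called members kept their sign, of which 7 lost the call in at least 1 alternative. Depth limits the 14 members without a count to a statement of up to 3 counts per library, and Trim10 rests on 6 to 26 counts per library.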
